A study of Drosophila melanogaster with 24 samples.

Results

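The Hox genes of Drosophila melanogaster lie in 2 groups on chromosome arm 3R, the Antennapedia complex and the Bithorax complex. The 8 genes described here were taken by name, lab, pb, Dfd, Scr and Antp in the Antennapedia complex and Ubx, abd-A and Abd-B in the Bithorax complex, from 13945 protein-coding genes on the assembled chromosomes. Their bodies were read from the dm6 gene models, and each body was set against 16 lists of ChIP-seq peaks. No measured value was a criterion, but earlier results of these data were known when the choice was made. The chromatin came from heads of male flies, 25 heads per sample, and was immunoprecipitated with antibodies against H3K27me3 or against asymmetric H3R17me2. The groups were 40-day-old LKRSDH MB01942 mutants, 40-day-old w1118 controls, 3-day-old mutants and 3-day-old w1118, with 2 replicates for each mark and group. LKRSDH encodes lysine ketoglutarate reductase/saccharopine dehydrogenase, an enzyme of lysine breakdown, and the MB01942 insertion was used as a homozygote. A whole head mixes neurons, glia, photoreceptors, fat body and epidermis, and a mark in fewer cells cannot be told apart from less of the mark per cell. The methods of the study describe the replicates as biological ones.

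Hox proteins are homeodomain transcription factors that give each body segment its identity. The order of the genes along the chromosome follows the order of the segments in which they act, from lab at the front of the head to Abd-B at the tip of the abdomen. Outside its own segments a Hox gene is kept silent by Polycomb group proteins. Among them is a methyltransferase that trimethylates a lysine of histone H3, and the resulting mark, H3K27me3, can cover a whole Hox complex. H3R17me2 is placed by arginine methyltransferases of the CARM1 type, and it is linked with transcription rather than with silencing.

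The H3K27me3 lists held 3575 to 6295 peaks over 30.7 to 45.4 Mb, and the H3R17me2 lists 10627 to 17105 peaks over 21.1 to 47.6 Mb. Each peak comes with its mean fold, the ratio of immunoprecipitated to input signal. The lists hold no read counts, so the depth behind a value is unknown. Of 5 marker genes of head tissue, the neuronal genes elav and nSyb and the rhodopsin gene ninaE were under no H3K27me3 peak in any of the 8 lists. The glial gene repo was covered over 70.1 to 94.7% of its length and the photoreceptor arrestin gene Arr2 over 100% in every list.

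In heads, H3K27me3 covered both Hox complexes nearly from end to end at either age and in either genotype. The gene body of lab, at chr3R:6661427-6678590, of Dfd, at chr3R:6791836-6802428, of Antp, at chr3R:6896253-6999228, of abd-A, at chr3R:16807214-16830049, and of Abd-B, at chr3R:16927212-16972236, was 100% under peaks in all 8 lists. These genes act in very different places, lab and Dfd in the head, Antp in the thorax, abd-A and Abd-B in the abdomen, and their covered share did not differ. Ubx, at chr3R:16656623-16734426, which specifies the last thoracic segment, was covered over 100% in 6 lists, over 99.9% in a 40-day w1118 list and over 99.8% in a 3-day mutant list. Scr, at chr3R:6823120-6849981, which acts in the labial and first thoracic segments, had 99.4 and 96.7% in 40-day mutants, 98.9 and 96.1% in 40-day w1118, 96.9 and 98.8% in 3-day mutants and 98.99 and 98.98% in 3-day w1118. The 40-day and the 3-day lists overlapped, as did the mutant and the w1118 lists, and the shortfall of Scr lay at its 3′ end. The lowest share was that of pb, at chr3R:6707800-6742063, which is needed for the adult mouthparts. It was covered over 94.3 and 94.6% in 40-day mutants, 94.0 and 94.3% in 40-day w1118, 93.6 and 93.7% in 3-day mutants and 94.1 and 94.8% in 3-day w1118.

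Neither age nor genotype went with a difference in these shares beyond the spread of the lists. Over the 8 genes the difference of 40-day and 3-day means was -0.65 to 0.25 percentage points, the ages overlapped for all 8, where 5.59% of all genes did not overlap, and no gene passed (lowest adjusted p = 1, exact permutation test of 4 against 4 lists, two-sided). The difference of mutant and w1118 means was -0.30 to 0 percentage points, with overlap for all 8 genes, where 0.172% of all genes did not overlap (lowest adjusted p = 1, same exact permutation test). A gene at 100% in every list can show no increase. The smallest p of this test is 0.02857. Before adjustment 780 of 13945 genes were under 0.05 by age and 24 by genotype, and after it none was. With so few genes at the smallest p no gene could pass, so the adjusted p decides nothing here.

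**Figure D1:**
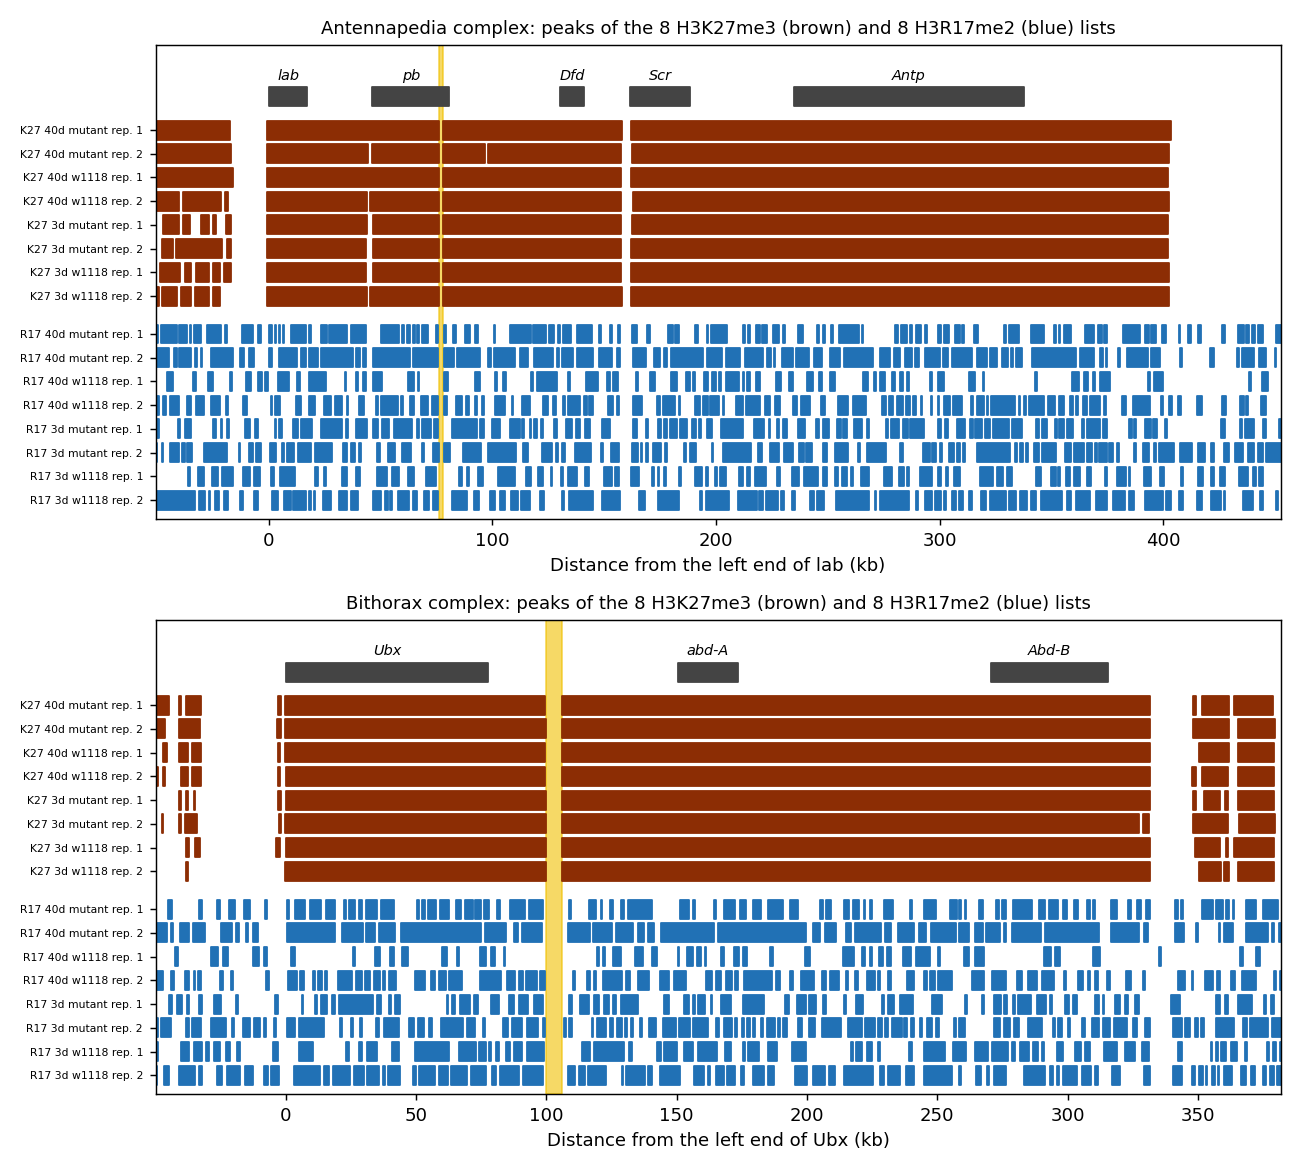
Peaks of each list along the Antennapedia complex (upper panel) and the Bithorax complex (lower panel), by distance in kb from the left end of lab or Ubx. Each row is 1 list, brown for H3K27me3 and blue for H3R17me2, dark bars above are the Hox genes, and yellow marks the Doc element in pb and the diver element in bxd. H3K27me3 peaks fill both complexes in all 8 lists with 3 breaks in common, and H3R17me2 peaks differ from list to list.

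Few genes are covered in this way. At least 99% of the body lay under H3K27me3 peaks in all 8 lists for 6 of the 8 Hox genes, against 851 of all 13945 protein-coding genes, or 6.10%. The other families of developmental regulators held similar counts, 6 of 6 genes of the NK homeobox cluster, 8 of 11 Iroquois and segment polarity genes and 7 of 10 Pax genes. The Hox genes are long, with a median length of 30563 bp against 2166 bp for all genes. The median gene had a covered share of 0%, and 8234 genes were under no peak in any of the 8 lists.

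The peaks over Scr, Antp, abd-A and Abd-B were among the longest of the genome. Scr and Antp shared a peak of 239.7 to 241.7 kb, which ranked 1 or 2 by length in every list, and abd-A and Abd-B shared a peak of 221.5 to 225.8 kb, which ranked 2 to 4. Ubx had a peak of its own of 99.6 to 100.04 kb. In the replicate 1 lists of 40-day mutants and 40-day w1118, lab and pb also shared a peak. A further peak ran over part of pb and all of Dfd in each list but that of 40-day mutant replicate 2. Genes within a shared peak carry the same peak values and are not separate measurements of them. Peaks over all 8 genes had a q-value under 0.05 in every list, with -log10 q of at least 5.73. Over the genome 623 to 1967 H3K27me3 peaks per list, of 3575 to 6295, had a q-value under 0.05.

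The domain of the Antennapedia complex, between the innermost left edge and the median right edge of the peaks as listed, was 403 kb long, at chr3R:6660814-7063898. In it, 97.1% of the bases were covered in all 8 lists and 1.45% in none. The domain of the Bithorax complex was 331 kb long, at chr3R:16656763-16988253, with 97.6% of the bases covered in all 8 lists and 1.86% in none. What was covered in none fell in 3 interruptions that all 8 lists shared.

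The longest interruption lay in the Bithorax complex between Ubx and abd-A, inside an intron of bxd, a long noncoding RNA gene upstream of Ubx. The left peak ended at 16756271 to 16756355, a range of 84 bp over 8 lists, and the right peak began at 16762520 to 16762599, a range of 79 bp. The uncovered stretch was 6164 to 6311 bp long. RefSeq's annotation of the release 6 assembly, which is dm6, places a mobile element of the diver family, 6133 bp long, at chr3R:16756375-16762507. The left peak ended 20 to 104 bp before this element, and the right peak began 13 to 92 bp after it. Another interruption lay in an intron of pb and measured 1772 to 2062 bp. Here the annotation has a Doc element of 1730 bp at chr3R:6737554-6739283. The left peak ended 17 to 139 bp before it and the right peak began 27 to 243 bp after it. No H3K27me3 and no H3R17me2 peak of any of the 16 lists reached into the stretch that all 8 H3K27me3 lists left uncovered at these elements.

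The reference sequence at the ends of both elements is shown because the peak edges fall next to them. It is the plus strand of dm6, with the bases of the element in capitals and the fly sequence beside it in lower case.
Doc left junction, chr3R:6737514-6737593: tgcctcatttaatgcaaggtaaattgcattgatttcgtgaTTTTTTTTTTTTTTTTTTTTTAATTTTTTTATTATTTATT
Doc right junction, chr3R:6739244-6739323: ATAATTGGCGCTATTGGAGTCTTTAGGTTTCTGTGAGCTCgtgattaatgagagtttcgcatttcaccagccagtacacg
diver left junction, chr3R:16756335-16756414: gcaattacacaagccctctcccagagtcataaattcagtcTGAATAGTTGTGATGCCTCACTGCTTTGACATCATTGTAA
diver right junction, chr3R:16762468-16762547: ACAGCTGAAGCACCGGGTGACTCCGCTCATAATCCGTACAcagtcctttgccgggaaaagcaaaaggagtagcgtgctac
The same 5 bases, cagtc, stand before and after the diver element, and the same 4 bases, gtga, before and after the Doc element. Mobile elements are known to leave a short duplication of this kind when they insert.

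**Figure D2:**
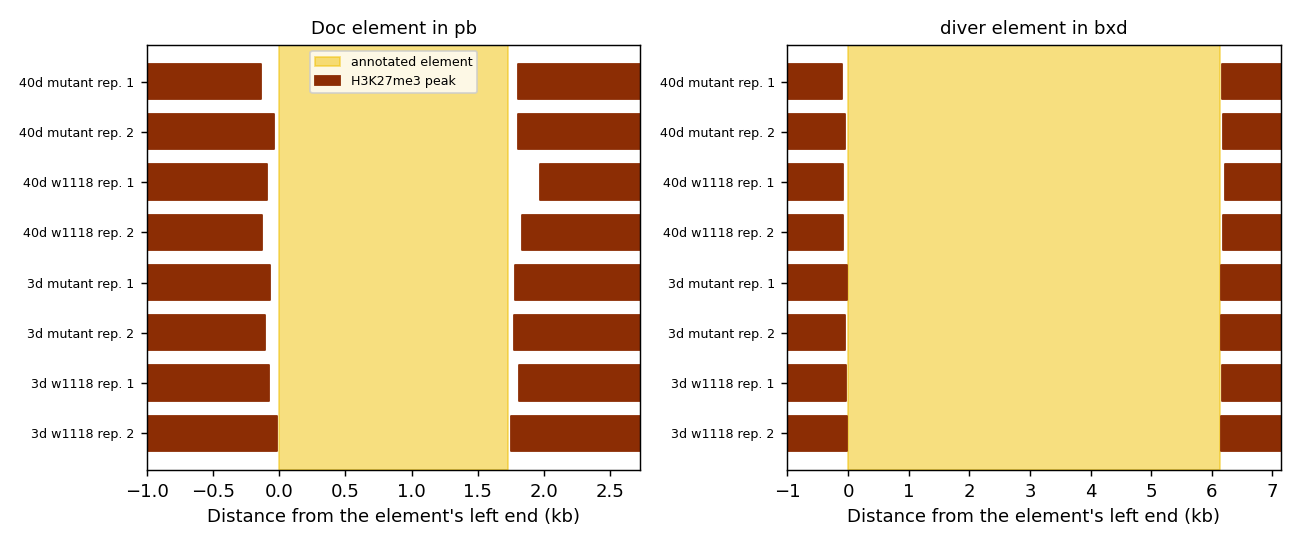
H3K27me3 peaks (brown) of the 8 lists around the Doc element in pb and the diver element in bxd (yellow), by distance in kb from the left end of each element. In every list the peaks stopped outside the element, at most 243 bp from its ends.

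The sequence of these stretches is repeated elsewhere in the genome. Of all windows of 50 bases in the bxd interruption, 99.5% occurred more than once in the reference assembly, with a median of 13 copies, and in the pb interruption 94.6% did, with a median of 115 copies. Over the whole domains this share was 1.52% in the Antennapedia complex and 1.87% in the Bithorax complex. The third interruption, 4116 to 5033 bp between Dfd and Scr, reached into the 3′ end of Scr and held 4 copies of the transfer RNA gene tRNA:Lys-TTT and 2 of the 7SL RNA gene, and 63.9% of its windows were repeated. Near-identical copies of this kind leave reads that fit several places. How the aligned reads were treated at such places was not tested, nor was whether the flies of this study carry the elements.

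Other elements stood in the same way. Over the genome, 51 annotated mobile elements of at least 1000 bp had H3K27me3 peaks over at least 50% of the 1000 bp on either side in all 8 lists, the 2 elements of the Hox complexes among them. Of these 51, 29 (56.9%) were under no peak of any of the 16 lists. None of 20 elements of 500 to under 1000 bp and none of 300 shorter ones in such surroundings was uncovered in all 8 H3K27me3 lists. In the Antennapedia complex the G4 element of 606 bp beside Edg84A was 100% covered in all 8. Some short elements of this complex did not meet the condition on their surroundings and are not in these counts. Among them, 2 X elements of 162 bp in the interruption between Dfd and Scr were under no peak of any of the 16 lists. An INE-1 element of 38 bp beside pb was under no peak in 6 of the 8 H3K27me3 lists.

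A break at the 3′ end of pb was not shared. It lay between the cuticle protein gene Ccp84Aa and pb in 6 of 8 lists, and the peaks ran on in the replicate 1 lists of 40-day mutants and 40-day w1118. A break of its own in bcd was found in the 40-day mutant replicate 2 list, and 1 in CG18622 in the 3-day mutant replicate 2 list.

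The other genes inside the complexes were covered with the Hox genes. Of 15 further protein-coding genes in the Antennapedia complex, 14 were covered over at least 99% in all 8 lists, among them zen and zen2, Hox-derived genes of the extraembryonic tissues, ftz, a pair-rule gene, Ama, which encodes a cell adhesion protein, and Edg84A and the Ccp84A genes of the cuticle. The exception was bcd, the gene of the maternal head determinant, with 95.7 ± 12.3% (SD, n = 8), which was at 100% in 7 lists and at 65.2% in the 40-day mutant replicate 2 list. In the Bithorax complex CG31275, the sugar transporter gene Glut3 and MSAmiP were covered over 100% in all 8.

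The domains ended close to the first Hox gene on the left and ran past the last on the right. In the Antennapedia complex the left edge lay at 6660479 to 6660814 over 8 lists, between lab and agt, and agt, twr and CG1307 were under no H3K27me3 peak in any list. On the right the peak went on for 64.7 kb beyond Antp, over Sodh1, CG1979 and dj, each covered over 100% in all 8 lists, to an edge at 7063610 to 7065030. In the Bithorax complex the left edge of the peak over Ubx lay at 16656313 to 16656763, at the 3′ end of Ubx. A small peak in modSP, a gene of a serine protease, followed on the left in 7 lists, with a mean modSP share of 30.2% (0 to 53.2%, n = 8), and CG14907 and Mettl4 were uncovered in all 8. On the right the peak ended 16017 bp beyond Abd-B, at 16987988 to 16988325 once the small break in CG18622 was joined, so that VhaM9.7-d, Actn3 and AhcyL2 lay inside it at 100% in all 8 lists.

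The question of a border that moves with age or genotype was put to these edges, with peaks joined across gaps of up to 5 kb. The 4 outer borders were compared between 40-day and 3-day lists and between mutant and w1118 lists. None of the 8 differences passed the two-sided exact permutation test of 4 against 4 lists, whose smallest p is 0.02857 (lowest adjusted p = 0.96, lowest unadjusted p = 0.143). A single border at that smallest p would not pass after adjustment over 8 comparisons, so the test cannot show that the borders are fixed. The right border of the Antennapedia complex lay 344 bp further out in 40-day lists than in 3-day lists, and it ranged over 1420 bp in all. The position of the left border of the Bithorax complex differed by -670 bp between 40-day and 3-day lists, that is further out at 40 days, and this value rests on the modSP peak, which the 3-day w1118 replicate 2 list lacks. With the peaks as listed it was -74.8 bp.

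H3K27me3 and H3R17me2 were then compared gene by gene, since the first mark goes with silencing and the second with transcription. All 8 Hox genes had a higher covered share for H3K27me3 than for H3R17me2 (exact permutation test of 8 against 8 lists, two-sided, adjusted p = 0.0017 over 13945 genes, the unadjusted p of 0.000155 being the smallest the test can give). With the lists paired by group and replicate number the adjusted p was 0.0691 for all 8 Hox genes, which no longer passes, and none of the 13945 genes passed (exact sign-flip permutation test of 8 pairs, smallest p 0.0078). H3K27me3 was the higher in 8 of 8 pairs for each Hox gene. Of all genes 8.7% passed the unpaired test with a higher H3K27me3 share. The lists of the marks did not overlap for any of the 8 Hox genes, as for 3.38% of all genes. Scr differed most, with 98.1 ± 1.29% under H3K27me3 and 40.1 ± 14.5% under H3R17me2 peaks (SD, n = 8 each), a difference of 58.0 ± 5.16 percentage points (SE). Least different was pb, with 94.2 ± 0.43% and 50.8 ± 17.7%, a difference of 43.4 ± 6.26 percentage points. The difference over the 8 genes had a median of 48.4 percentage points, against -12.5 for all genes. It was not taken for the NK homeobox, Pax and Iroquois and segment polarity genes, whose median H3K27me3 share was also 100%.

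**Figure D3:**
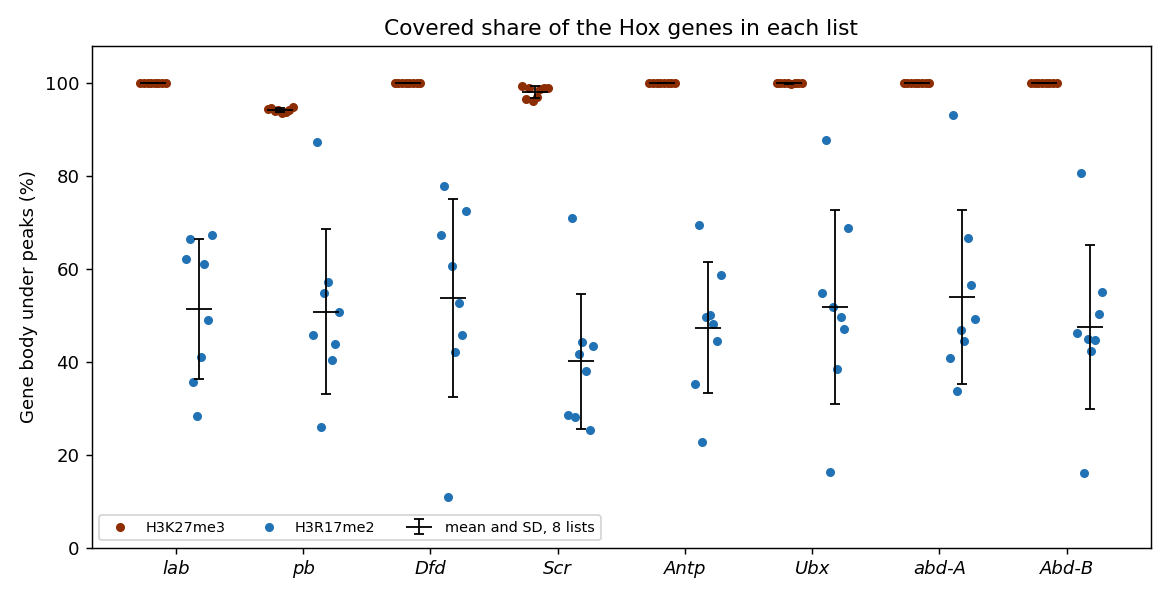
Share of each Hox gene body under peaks, in percent, for the 8 H3K27me3 lists (brown) and the 8 H3R17me2 lists (blue), with mean and SD in black. H3K27me3 shares lie between 93.6 and 100%, H3R17me2 shares between 10.9 and 93.1%, and the marks overlap for no gene.

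H3R17me2 peaks in the Hox genes were many, short and weak. The 8 genes held a median of 2 peaks in Dfd to 17 peaks in Antp per list, with median lengths from 2016 bp in Scr to 3812 bp in Dfd. Their mean fold per gene was 1.26 to 1.58 over input, with a Hox median 1.01 to 1.04 times that of all genes with a peak in the same list, and no H3R17me2 peak over a Hox gene had a q-value under 0.05 (highest -log10 q = 0.366). Over the whole genome, too, few H3R17me2 peaks had such a q-value, 3 to 130 per list of 10627 to 17105. With peaks of q under 0.05 only, the H3R17me2 share of all 8 genes was therefore 0 and that of H3K27me3 was as before. The lists also did not place the peaks at the same bases. No base of any of the 8 Hox gene bodies was under an H3R17me2 peak in all 8 lists, and bases covered in 7 of 8 made up 0 to 6.47% of a gene, the lowest in lab and the highest in Ubx. Bases covered in no list made up 7.03% of pb, where the Doc element lies, 4.57% of Abd-B and at most 1.49% of the other 6. Over the whole domains, bases in all 8 lists made up 0.347% of the Antennapedia complex and 0% of the Bithorax complex. The same share was not taken over all genes, so it is not known to be particular to the Hox genes.

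For the H3R17me2 share of single genes the lists disagreed more than the genes did. Ubx had 54.8 and 87.8% in 40-day mutants, 16.4 and 51.8% in 40-day w1118, 38.5 and 49.6% in 3-day mutants and 47.0 and 68.9% in 3-day w1118. Abd-B had 46.2 and 80.6% in 40-day mutants, 15.98 and 45.0% in 40-day w1118, 42.2 and 44.7% in 3-day mutants and 50.2 and 55.0% in 3-day w1118. The 40-day w1118 replicate 1 list was the lowest and the 40-day mutant replicate 2 list the highest for both genes. Means over the 8 lists ran from 40.1% in Scr to 53.9% in abd-A, with SDs of 14.1 to 21.3 percentage points. These SDs hold differences between lists that the genes share, and differences between genes were not tested. The head gene lab had 62.2 and 66.5% in 40-day mutants, 35.7 and 28.4% in 40-day w1118, 41.1 and 61.1% in 3-day mutants and 48.9 and 67.2% in 3-day w1118. For lab the mutant lists lay above the w1118 lists at 40 days and overlapped them at 3 days.

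The other genes showed the same spread. In Dfd the H3R17me2 share was 67.2 and 77.8% in 40-day mutants, 10.9 and 60.6% in 40-day w1118, 42.1 and 52.7% in 3-day mutants and 45.9 and 72.4% in 3-day w1118, which spans most of the scale. In pb it was 45.7 and 87.4% in 40-day mutants, 26.1 and 54.8% in 40-day w1118, 57.2 and 40.5% in 3-day mutants and 43.9 and 50.8% in 3-day w1118. Dfd and pb were lowest in the 40-day w1118 replicate 1 list and highest in the 40-day mutant replicate 2 list, as Ubx and Abd-B were. For Scr the share was 28.6 and 71.0% in 40-day mutants, 28.2 and 41.8% in 40-day w1118, 44.3 and 38.1% in 3-day mutants and 25.4 and 43.5% in 3-day w1118. Antp had 35.2 and 69.4% in 40-day mutants, 22.7 and 49.7% in 40-day w1118, 50.1 and 48.2% in 3-day mutants and 44.5 and 58.7% in 3-day w1118. The share of abd-A was 40.9 and 93.1% in 40-day mutants, 33.7 and 46.8% in 40-day w1118, 44.6 and 66.7% in 3-day mutants and 56.6 and 49.2% in 3-day w1118. All 3 were again highest in the 40-day mutant replicate 2 list, while the lowest Scr value was that of the 3-day w1118 replicate 1 list.

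The lists of a group differed for the Hox genes and for all genes alike. The mean over the 8 Hox genes was 47.6 and 79.2% in 40-day mutants, 23.7 and 47.4% in 40-day w1118, 45.0 and 50.2% in 3-day mutants and 45.3 and 58.2% in 3-day w1118. Over all protein-coding genes it was 29.4 and 38.1% in 40-day mutants, 15.6 and 29.3% in 40-day w1118, 24.0 and 40.3% in 3-day mutants and 25.0 and 35.4% in 3-day w1118. In each group the list of replicate 2 was the higher, for the Hox genes and for all genes, and the part of the list's total coverage in the Hox values was not tested. The Hox mean was above the mean of all genes in 8 of 8 lists. This is not particular to the Hox genes. With the share of each gene averaged over its 8 lists, the median was 51.1% over the Hox genes and 30.5% over all genes. It was 51.2% over the NK homeobox cluster, 46.7% over the Pax genes and 43.5% over the Iroquois and segment polarity genes.

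**Figure D4:**
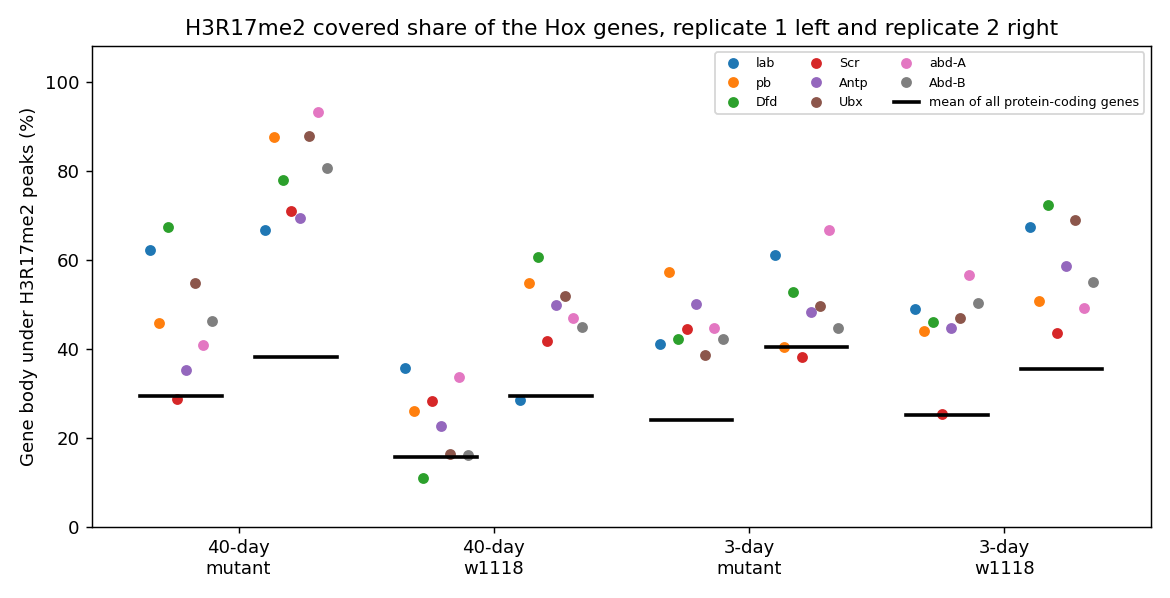
H3R17me2 covered share of each Hox gene, in percent, by group, with replicate 1 left and replicate 2 right in each group; black bars are the mean over all protein-coding genes in the same list. By the mean over the 8 genes the 40-day w1118 replicate 1 list is the lowest, at 23.7%, and the 40-day mutant replicate 2 list the highest, at 79.2%, and the black bars are higher for replicate 2 in each group.

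Age and genotype differences of H3R17me2 in Hox genes were within the spread of the lists. Over both genotypes the 40-day lists overlapped the 3-day lists for all 8 genes, where 1.59% of all genes did not overlap, and the median difference was 0.11 percentage points (lowest adjusted p = 1, exact permutation test of 4 against 4 lists). This value averages opposite ones, a median of 15.5 percentage points within mutants, where all 8 genes had the higher mean at 40 days, and -18.8 within w1118, where 7 of 8 had the lower. Over both ages the mutant lists overlapped the w1118 lists for all 8 genes, where 1.56% of all genes did not overlap. All 8 genes had a higher mean in mutants over both ages, by 6.81 to 14.8 percentage points (median 12.2), but the median was 29.5 within the 40-day flies and -4.70 within the 3-day flies, where 5 of 8 genes were lower in mutants. The median over both ages was 3.37 without the 40-day mutant replicate 2 list and 5.62 without the 40-day w1118 replicate 1 list, and the mean over all genes was 32.9% in mutants and 26.3% in w1118. Within the 40-day flies lab, Dfd, Ubx and Abd-B did not overlap and were higher in mutants, 4 of 8 genes against 18.9% of all genes. Within mutants the same 4 genes were higher at 40 days without overlap, against 12.3% of all genes, and both comparisons use the same 40-day mutant lists. Within w1118 lab, abd-A and Abd-B were lower at 40 days without overlap, 3 of 8 against 15.5% of all genes, and at 3 days Abd-B was lower in mutants, 1 of 8 against 9.32%. With 2 lists against 2 the smallest p is 0.3333, so these are values without a call. With 4 against 4 it is 0.02857, and 222 of 13945 genes by age and 217 by genotype were under 0.05 before adjustment. After adjustment no gene could pass, so the adjusted p decides nothing here. The lists of replicate 1 and of replicate 2 also gave opposite median age differences, -10.2 and 11.3 percentage points.

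H3R17me2 was set against the surroundings of the complexes, in a comparison chosen after the data were seen. In the Bithorax complex it covered 47.8 ± 16.7% of the domain and 30.6 ± 11.8% of the 50 kb on either side (SD, n = 8 lists), a difference of 17.2 percentage points that was positive in 7 of 8 lists (exact sign-flip permutation test over lists, two-sided, p = 0.0156, adjusted p = 0.0208 over 4 such comparisons). In the Antennapedia complex the values were 47.3 ± 12.5% and 34.6 ± 13.0%, a difference of 12.7 percentage points in the same number of lists (p = 0.0234 and the same after adjustment, exact sign-flip permutation test). The exception was the 3-day mutant replicate 2 list in both, at -0.777 in the Bithorax and -4.60 percentage points in the Antennapedia complex. The size depends on the flanks, with 28.9 and 16.5 percentage points in the Bithorax complex and 20.7 and 10.7 in the Antennapedia complex for flanks of 20 and 100 kb. The 4 comparisons adjusted together were those of either mark in either complex. Those of H3K27me3 were settled in advance, since its peaks define the domains, and the adjusted values rest in part on them. Within 1 kb of the annotated gene starts the H3R17me2 share averaged 30.1% over the 8 genes, against 49.6% over the gene bodies. No Hox gene passed the test of this difference (adjusted p = 0.0675 for Dfd to 0.624 for Ubx, exact sign-flip permutation test over 8 lists, adjusted over 3484 genes of at least 5000 bp), and pb, Scr, Ubx, abd-A and Abd-B were lower at the start in 5 of 8 lists. The mean was lower at the start for each of the 8 genes and for 75.1% of the 3484. H3K27me3 covered these windows over 100% for all 8 genes in all 8 lists.

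The promoters themselves carried motifs that Polycomb recruiting proteins bind. The letters GAGAG, bound by the GAGA factor, and GCCAT, bound by Pho, were searched on both strands from 250 bases before to 50 bases after the outermost annotated start, overlapping matches counted. GAGAG was found in 7 of 8 Hox promoters, all but Abd-B, and in 29.7% of 13945 promoters, and GCCAT in 6 of 8, all but lab and Antp, and in 41.2% of all. Dfd had 6 GAGAG and 5 GCCAT matches, abd-A 5 and 4, Scr 5 and 2, Ubx 4 and 1. At least 3 GAGAG matches, as in these 4 genes, were found in 6.12% of all promoters. A match gives letters only, with no evidence of binding, and all these promoters lay under H3K27me3 peaks whether they held matches or not.

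The 250 bases before the start are shown for the genes with the most matches in each complex, Dfd and abd-A, and for Ubx, in the direction of transcription (dm6, Dfd on the plus strand and the others on the minus strand), with both motifs and their reverse complements in capitals.
Dfd, chr3R:6791586-6791835: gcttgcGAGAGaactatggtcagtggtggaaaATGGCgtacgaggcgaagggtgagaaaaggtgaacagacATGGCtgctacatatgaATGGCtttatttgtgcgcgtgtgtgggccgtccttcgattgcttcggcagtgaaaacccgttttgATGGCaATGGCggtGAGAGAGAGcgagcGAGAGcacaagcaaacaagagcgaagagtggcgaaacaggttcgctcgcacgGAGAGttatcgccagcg
Ubx, chr3R:16734427-16734676: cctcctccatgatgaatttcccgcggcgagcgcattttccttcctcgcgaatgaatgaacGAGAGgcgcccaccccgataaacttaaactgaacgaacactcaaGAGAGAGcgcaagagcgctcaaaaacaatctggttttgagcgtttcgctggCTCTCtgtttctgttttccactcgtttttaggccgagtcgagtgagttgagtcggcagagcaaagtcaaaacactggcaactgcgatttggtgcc
abd-A, chr3R:16830050-16830299: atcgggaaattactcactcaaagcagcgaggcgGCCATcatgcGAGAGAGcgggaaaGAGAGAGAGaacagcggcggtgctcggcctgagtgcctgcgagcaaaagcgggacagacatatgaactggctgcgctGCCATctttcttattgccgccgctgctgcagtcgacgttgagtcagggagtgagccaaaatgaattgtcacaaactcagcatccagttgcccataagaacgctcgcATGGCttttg

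The strength of H3K27me3 over the Hox genes was then compared through the fold of the peaks. It differed little between genes and much between lists. Ubx had a fold of 2.34 and 3.62 in 40-day mutants, 2.14 and 2.35 in 40-day w1118, 3.501 and 2.64 in 3-day mutants and 2.91 and 4.98 in 3-day w1118. Dfd, with the lowest mean, had 2.30 and 3.15 in 40-day mutants, 2.13 and 2.31 in 40-day w1118, 3.28 and 2.53 in 3-day mutants and 2.78 and 4.10 in 3-day w1118. Both genes were highest in the 3-day w1118 replicate 2 list and lowest in the 40-day w1118 replicate 1 list. The fold of lab was 2.37 and 3.27 in 40-day mutants, 2.13 and 2.35 in 40-day w1118, 3.40 and 2.68 in 3-day mutants and 2.82 and 4.15 in 3-day w1118. That of pb was 2.36 and 3.29 in 40-day mutants, 2.13 and 2.32 in 40-day w1118, 3.30 and 2.57 in 3-day mutants and 2.80 and 4.17 in 3-day w1118. The shared peak of Scr and Antp had 2.35 and 3.33 in 40-day mutants, 2.14 and 2.33 in 40-day w1118, 3.37 and 2.62 in 3-day mutants and 2.86 and 4.46 in 3-day w1118. For the shared peak of abd-A and Abd-B the fold was 2.41 and 3.43 in 40-day mutants, 2.18 and 2.43 in 40-day w1118, 3.44 and 2.61 in 3-day mutants and 2.92 and 4.61 in 3-day w1118. All of them kept the same highest and lowest list as Ubx. The means of Ubx and Dfd over 8 lists were 3.06 ± 0.945 and 2.82 ± 0.661 (SD). These SDs hold differences between lists that the genes share, so they do not measure a difference between genes. Within every list the fold of Dfd was below that of Ubx and that of pb. The closest values of Dfd and pb were 2.12657 and 2.1272, in the 40-day w1118 replicate 1 list. Differences between genes were not tested.

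**Figure D5:**
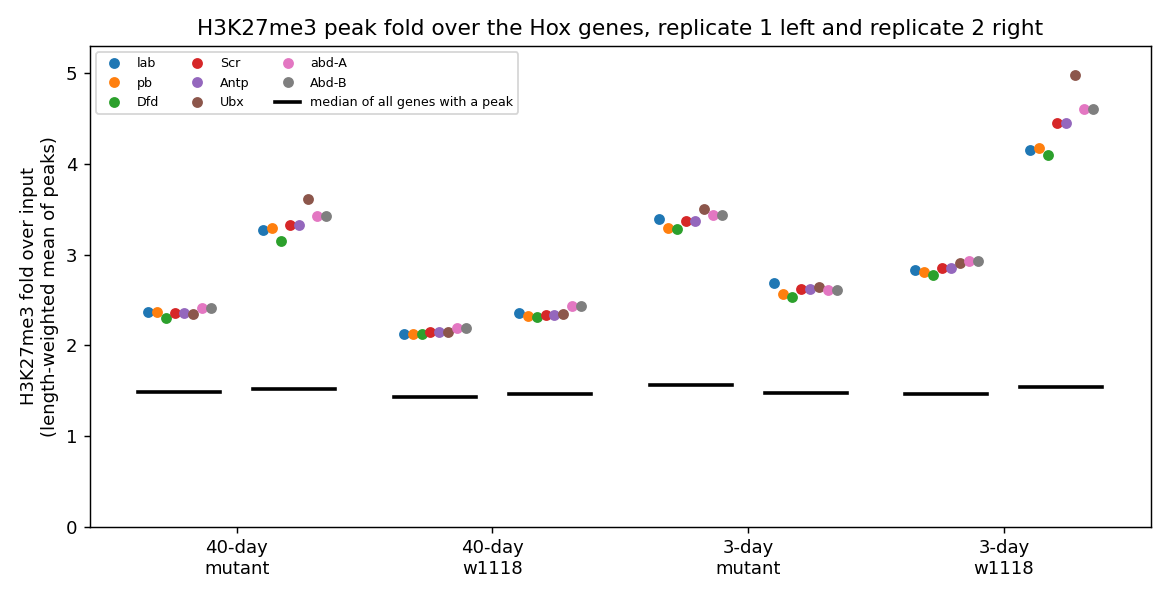
H3K27me3 fold over input of the peaks over each Hox gene, by group, with replicate 1 left and replicate 2 right in each group; black bars are the median over all genes with a peak in the same list. The 40-day w1118 lists lie at 2.13 to 2.43 and the 3-day w1118 lists at 2.78 to 4.98, while the mutant lists of both ages overlap.

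In w1118 heads the fold over the Hox genes was lower at 40 days. The median over the 8 genes was 2.14 and 2.34 in the 40-day lists, against 2.86 and 4.46 in the 3-day lists, and the ages did not overlap for any of the 8 genes. Among all genes with a peak in these 4 lists, 50.5% were lower at 40 days without overlap. The median difference was -1.42 for the Hox genes and -0.07 for all such genes, whose mean fold was 1.61 at 40 days and 1.92 at 3 days. For the Hox genes it was -0.62 without the 3-day w1118 replicate 2 list and -2.22 without the 3-day w1118 replicate 1 list. Whether the Hox genes differ in this from other genes of high fold was not tested. With 2 lists against 2 the smallest p is 0.3333, so no call is made. In mutant heads the Hox median was 2.36 and 3.33 in the 40-day lists, against 3.38 and 2.62 in the 3-day lists, and the ages overlapped for all 8 genes. Whether the change with age differs between the genotypes was not tested.

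Over both genotypes the fold of the 8 genes was 0.68 to 0.89 lower at 40 days, and the ages overlapped for all 8 genes, where 6.39% of 2426 genes with a peak in all 8 lists did not overlap (adjusted p = 0.38 to 0.427, exact permutation test of 4 against 4 lists). Of the 2426 genes, 155 were under 0.05 before adjustment and none after it. With so few at the smallest p this test could call no gene, so the adjusted p decides nothing here. Within replicate 1 the median difference was -0.87 and within replicate 2 it was -0.68. Without the 3-day w1118 replicate 2 list the median difference of -0.78 becomes -0.40. Between genotypes the fold differed by -0.07 to 0.06 over both ages, and mutants and w1118 overlapped for all 8 genes, against 5.28% of genes that did not. This value averages opposite ones, a median of 0.60 within the 40-day flies and of -0.66 within the 3-day flies, where all 8 genes were lower in mutants with overlap, and of 0.37 within replicate 1 and -0.42 within replicate 2. Within the 40-day flies lab, pb, Scr and Antp were higher in mutants without overlap, 4 of 8 genes against 53.9% of all genes with a peak in these lists. Scr and Antp share a peak, and so do lab and pb in the replicate 1 lists, so these are not 4 separate measurements.

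The fold was also read as a percentile within each list. The median percentile of the Hox genes among all genes with an H3K27me3 peak was 95.8 and 96.5 in 40-day mutants, 96.4 and 95.8 in 40-day w1118, 92.8 and 94.3 in 3-day mutants and 94.4 and 94.9 in 3-day w1118. The median difference between the ages was 2.43 percentile points, given with no test, and 7 of 8 genes were higher at 40 days without overlap, against 19.2% of 2426 genes. The 40-day lists had peaks over 4406 to 4637 genes and the 3-day lists over 3077 to 4101, so the percentiles rest on different genes. Among the 2426 genes with a peak in all 8 lists the median percentile of the Hox genes was 92.4 and 93.9 in 40-day mutants, 93.8 and 92.9 in 40-day w1118, 90.9 and 90.6 in 3-day mutants and 91.3 and 93.98 in 3-day w1118. The highest of these is a 3-day list, w1118 replicate 2, so the ages overlap. The median difference was 1.84 percentile points, and 4 of 8 genes were higher at 40 days without overlap, against 5.69% of these genes. Among all genes with a peak, the percentile averaged over the 8 lists had a median of 95.1 over the Hox genes. It was 98.5 over the NK homeobox cluster, 92.3 over the Iroquois and segment polarity genes and 88.7 over the Pax genes.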

How the data were processed

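Chromatin of 16 immunoprecipitated samples, 8 for each mark, was compared, and the 8 input samples entered only through the authors' peak calling. Which input served which library is not given in the sources used here. Per the submitters' processing notes, the tools were Trim Galore 0.6.0, Bowtie2 2.5.1, SAMtools 1.19, Picard and MACS2 2.2.7.1, with dm6 as the genome. The deposited broadPeak lists were called by the authors at p of 0.01 with a minimum length of 500 bp, so that many listed peaks are weak. For each peak the authors' MACS2 run computed the fold, a ratio of immunoprecipitated to input signal, and the deposited lists hold it as made. The authors' MACS2 run also gave each peak's −log10 p-value and −log10 q-value, as deposited. No read count is given, and the depth is unknown.

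Covered share was the percentage of a gene body's bases under peaks, and fold was the mean over the overlapping peaks weighted by overlap, without a value where no peak lay. Overlapping peaks were merged. Gene models came from Ensembl, and mobile elements and sequences from RefSeq, both on the release 6 assembly that dm6 names. Tests were two-sided exact permutation tests over lists, with Benjamini-Hochberg adjustment over all genes tested or over the 8 border comparisons. The calculations were tested on simulated data and used Python 3.11.15, NumPy 2.4.6, pandas 2.3.3 and matplotlib 3.10.9. Named were all 8 Hox genes, zen, zen2, bcd, ftz, Ama, the 3 other genes of each complex with the lowest H3K27me3 share and the first 3 genes beyond each end. The cuticle genes of the Antennapedia complex and CG18622 were named after their values were seen. Members and lists were chosen with earlier results of these data known. Alternatives were another gap for joining peaks, q under 0.05, fold of at least 1.5, the gene start in place of the body, percentiles, the replicate block and each list left out in turn. No value of the inputs was used.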

Additional observations from a re-analysis of the deposited data

Results flagged for a closer look

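For 4 comparisons the groups did not overlap in either of 2 strata and their differences had opposite signs. The difference between strata was not tested in any of them, each of which sets 2 lists against 2. The H3K27me3 share of pb was higher in mutants than in w1118 by 0.3604 percentage points at 40 days, and the difference was -0.8478 percentage points at 3 days. Of all genes, 0.71% showed opposite genotype differences of this kind.

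The H3R17me2 share of lab differed between 40-day and 3-day flies by 13.28 percentage points in mutants and by -26.01 in w1118. That of Abd-B, between the same ages, differed by 19.96 percentage points in mutants and by -22.14 in w1118. Opposite age differences of this kind were found for 2.94% of all genes. For Abd-B the mutant minus w1118 difference was 32.96 percentage points at 40 days and -9.142 at 3 days, as for 2.64% of all genes with opposite signs.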

How the results depend on the processing

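The replicate numbers were not taken as pairs, since the deviations of samples with the same number from their group mean were not correlated across genes (-0.168 to 0.0724 within a mark), although the mean H3R17me2 share over all genes was higher in replicate 2 in 4 of 4 groups. With the replicate block the higher H3K27me3 share was called for 0 of 8 Hox genes (adjusted p = 0.0691, exact sign-flip permutation test of 8 pairs, whose smallest p is 0.0078), against 8 of 8 without it. The median difference between the marks, 48.4 percentage points, was 100 with peaks of q under 0.05, 90.2 with fold of at least 1.5 and 69.9 within 1 kb of the gene start. Over the whole genome only 3 to 130 H3R17me2 peaks per list had a q under 0.05. The median H3R17me2 age difference of 0.11 percentage points was 15.5 within mutants and -18.8 within w1118. The genotype difference of 12.2 was -7.99 with fold of at least 1.5, 29.5 within 40-day and -4.70 within 3-day flies. The age difference in H3K27me3 fold, -0.78, became 2.43 as percentile among genes with a peak and 1.84 among genes with a peak in all lists, and the genotype difference of -0.03 became -0.612 and -1.10. The cause was not tested. With each list left out in turn, the marks differed for 8 to 8 genes with a median of 44.8 to 52.5 percentage points. The H3R17me2 differences ranged from -11.2 to 9.28 (age) and from 3.37 to 16.9 (genotype), and the fold differences from -1.05 to -0.40 (age) and from -0.30 to 0.47 (genotype). No border difference was called. H3R17me2 in the domain minus its flanks ranged from 10.2 to 15.2 percentage points in the Antennapedia complex and from 13.9 to 19.8 in the Bithorax complex. With flanks of 20 kb it was 20.7 and 28.9, and with flanks of 100 kb 10.7 and 16.5. Within w1118 the fold difference between ages ranged from -2.22 to -0.62. The alternatives of these comparisons were chosen after seeing the data. Depth is unknown, so no counting error can be given.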
